A study of Danio rerio with 36 samples.

Results

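The genes described here are 9 markers of dividing cells. They were followed by their Ensembl identifiers in cells sorted with a glial reporter, before and during the differentiation of Müller glia in the zebrafish eye. They are *pcna* (ENSDARG00000054155), *mki67* (ENSDARG00000091150), *mcm5* (ENSDARG00000019507), *top2a* (ENSDARG00000024488), *cdk1* (ENSDARG00000087554), *ccnb1* (ENSDARG00000051923), *ccnd1* (ENSDARG00000101637), *skp2* (ENSDARG00000004937), and *rttn* (ENSDARG00000004131), 9 of the 31540 genes of the table. Of these 9 genes, 6 had reads and 3 were listed at 0 in every column. The libraries came from whole eyes of Tg(*GFAP:GFP*) zebrafish, pooled 20 to 40 at each stage and raised in phenylthiourea, which stops pigment from forming. The eyes were dissociated and sorted into GFP-positive cells (MG) and GFP-negative cells (C) at 48, 60, 72, 96, 120, and 192hpf (hours post fertilization). The 12 groups have 3 columns each, 36 in all. In this line the *gfap* promoter drives GFP, and C is a mixture of all cells of the eye without GFP, so a low value in C is an average over dividing and resting cells. The paper places the initial specification of Müller glia at about 60hpf. The GFP-positive cells of 48hpf, named MG here as well, were thus sorted before that stage.

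A cell that divides copies its DNA in S phase and separates the copies in mitosis. *ccnd1* encodes cyclin D1, which drives the passage from G1 into S phase, and *skp2* encodes the F-box protein that marks cell cycle inhibitors for degradation. *mcm5* and *pcna* belong to the replication machinery, as a subunit of the MCM helicase and as the sliding clamp of the DNA polymerases. *cdk1* and *ccnb1* encode the kinase and the cyclin that start mitosis, *top2a* encodes the topoisomerase that untangles sister chromatids, and *mki67* encodes a protein of the surface of mitotic chromosomes. *rttn* encodes rotatin, a centriole protein. Müller glia are among the last cells that retinal progenitors produce, and they leave the cell cycle as they differentiate, while the margin of the fish retina keeps dividing stem cells.

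*pcna*, *mki67*, and *top2a* could not be followed. They were listed at 0 in all 36 columns, and so were 7496 of the 31540 genes (23.8%). Placed by symbol on the assembly GRCz12tu, 2455 of 2483 genes (98.9%) on chromosomes 1, 10, 11, and 12 were at 0, against 348 of 14315 genes (2.43%) on the other 21 chromosomes. *pcna* lies on chromosome 10, and *mki67* and *top2a* lie on chromosome 12. Their zeros were therefore shared with nearly all of their chromosome neighbours, and no level or difference is given for them. The 6 measured genes lie on chromosomes 3 (*mcm5*), 17 (*cdk1*), 5 (*ccnb1*), 7 (*ccnd1*), 21 (*skp2*), and 24 (*rttn*).

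Levels are given in CPM, a gene's share of the reads of its column scaled to 1000000. The columns held 1311849 to 8889893 reads, except those of 60hpf MG, which held 63463 to 90846. Most columns of a group differed by no more than the sampling of reads. In 11 of the 12 groups replicates 1 and 2 differed by far less (ratio 0.0704 to 0.243, where 1 is sampling alone), so that they were not independent draws of reads, and the 36 columns counted as 14 libraries, 1 for each group and 2 for MG and C at 48hpf. A stage later than 48hpf thus had no replicate. At 48hpf the second library of each fraction is the replicate 3 column, which resembled another group, as given below. The intervals (95%, exact binomial) of all stages, 48hpf included, cover counting error only. A level of 3 reads in the shallower library was taken as the floor of a stage, which was 38 CPM at 60hpf, where MG was shallow, and between 0.693 and 2.28 CPM at the others. The column labelled 48hpf MG replicate 3 differed from the 72hpf MG columns by no more than read sampling (ratio 0.864 to 0.945), but from 48hpf MG replicates 1 and 2 by a ratio of 136 to 137. The column labelled 48hpf C replicate 3 differed from 48hpf MG replicates 1 and 2 by a ratio of 0.683 and 0.989, but from C replicates 1 and 2 by 4.49. The differences at 48hpf, the half-loss stages, and the fits are therefore given with and without these 2 columns. The 60hpf MG columns, with few reads, differed from the columns of the other 11 groups by ratios of only 0.983 to 3.04, and from those of 96hpf C by 0.983 to 1.05. The stages did not follow each other smoothly: across 16735 genes Spearman's rho in MG was 0.945 between 96 and 192hpf and 0.835 between 48 and 72hpf, but 0.656 between 72 and 96hpf and 0.537 between 96 and 120hpf. The 48hpf MG values here had the replicate 3 library averaged in, which itself resembles 72hpf MG. The 0.835 is therefore not the likeness of replicates 1 and 2 to 72hpf. Of the glial markers, *glula* (glutamine synthetase) stood at 2499, 6311, 3161, and 8441 CPM in MG at 72, 96, 120, and 192hpf, against 383, 1098, 1585, and 2103 CPM in C. *gfap* itself did not exceed 17.3 CPM in any MG library. At 72, 96, 120, and 192hpf *gfap* had 2.31, 17.3, 0.73, and 10.2 CPM in MG, against 0.17, 1.44, 2.499, and 0.234 CPM in C. It was thus higher in MG at 72, 96, and 192hpf and lower in MG at 120hpf. At 72, 120, and 192hpf the lower value of the pair was under the floor of the stage.

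In replicates 1 and 2 of 48hpf, MG carried transcripts of 5 of the 6 measured genes at about the level of C. *mcm5* had 359, 369, and 6.34 CPM in MG replicates 1, 2, and 3, against 288, 285, and 365 CPM in C. *cdk1* had 211, 207, and 0.340 CPM in MG, against 241, 243, and 208 CPM in C. *ccnd1* had 625, 630, and 21.2 CPM in MG, against 741, 733, and 643 CPM in C. In each of these genes replicate 3 of MG was the low column, and the remaining MG columns stood beside the C columns. *ccnb1* had 79.6, 77.2, and 8.27 CPM in MG and 79.7, 74.7, and 76.5 CPM in C, and *skp2* had 36.3, 35.2, and 16.3 CPM in MG and 41.8, 40.4, and 32.3 CPM in C. For *ccnb1* and *skp2* the MG and C columns overlapped. *rttn* was the exception, with 14.6, 14.1, and 9.45 CPM in MG and 31.1, 31.3, and 16.8 CPM in C, all MG columns below all C columns.

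On the log2 scale (MG minus C) and without the 2 replicate 3 columns, the difference at 48hpf was 0.35 for *mcm5* (95% counting interval 0.19 to 0.51), -0.21 for *cdk1* (-0.39 to -0.04), 0.023 for *ccnb1* (-0.28 to 0.35), -0.23 for *ccnd1* (-0.33 to -0.13), -0.20 for *skp2* (-0.62 to 0.25), and -1.12 for *rttn* (-1.66 to -0.57). Thus 1 of 6 genes was at least 2-fold lower in MG, where 18.3% of all genes were, and none was 2-fold higher, where 2.83% were. With the replicate 3 libraries averaged in, the differences became -2.75 for *mcm5*, -3.36 for *cdk1*, -1.59 for *ccnb1*, and -2.58 for *ccnd1*, and 4 of 6 genes were at least 2-fold lower in MG (28.5% of all genes) and 0 higher (11.6%). The call at 48hpf therefore rests on which columns are taken as 48hpf MG.

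**Figure D1:**
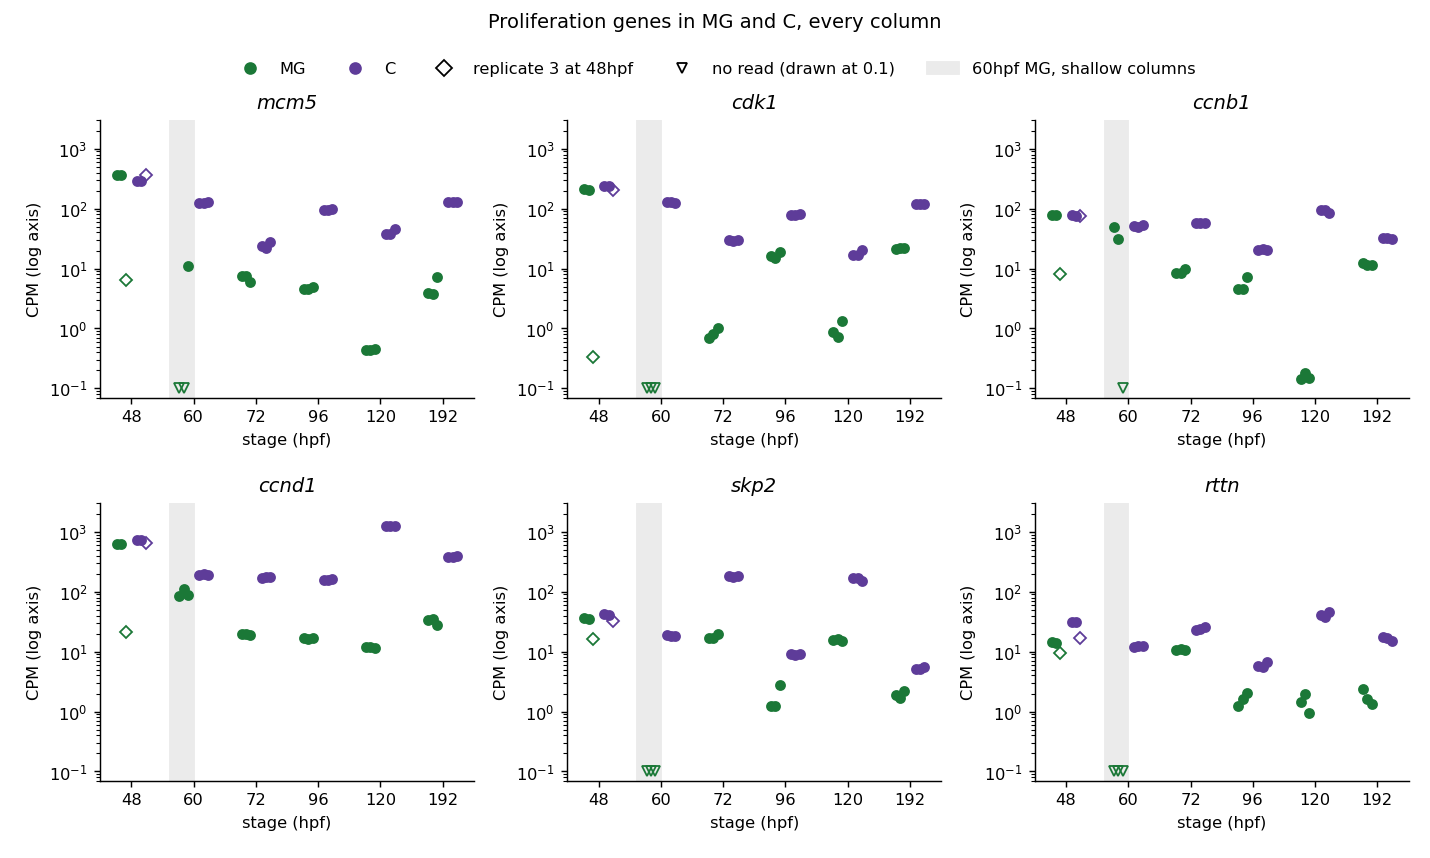
CPM of 6 proliferation genes (log axis) in every MG column (green) and C column (purple) against stage in hpf, with MG to the left of C; open diamonds are replicate 3 at 48hpf, open triangles are columns without a read, and the grey band marks the shallow 60hpf MG columns. From 72hpf on, the MG points of each gene lie below the C points of the same stage, and *mcm5* in MG, at 359 and 369 CPM in 48hpf replicates 1 and 2, lies at 7.57 CPM or less.

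By 72hpf, the next stage at which MG was sequenced deeply enough, most of these transcripts were low in MG. Since the sorted cells were sequenced in bulk, a smaller share of dividing cells in MG and fewer of these transcripts in each dividing cell cannot be told apart. Whether the same kind of cell carried GFP at 48hpf and at 72hpf was not tested. *mcm5* had 7.40, 7.57, and 6.07 CPM in 72hpf MG, which is 1.92% of its level in 48hpf MG replicates 1 and 2. *cdk1* had 0.697, 0.797, and 1.01 CPM, close to the 72hpf floor of 0.767 CPM. With the higher floor of 48hpf (2.28 CPM) applied, this was at most 1.09% of its 48hpf level. *ccnd1* had between 19.1 and 20 CPM, or 3.13% of its 48hpf level. The replication helicase gene, the mitotic kinase gene, and the cyclin gene of G1 were thus low beside replicates 1 and 2. With the 48hpf replicate 3 library averaged in, the 72hpf level was 14.6% of 48hpf for *mcm5*, 3.83% for *cdk1* (no floor applied), and 17.0% for *ccnd1*. *ccnb1* had 8.60, 8.54, and 9.79 CPM (11.4% of 48hpf), *skp2* had 17.0, 16.7, and 19.7 CPM (49.7%), and *rttn* had between 10.5 and 10.9 CPM (74.2%), or 35.2%, 73.8%, and 91.5% for the 3 genes with replicate 3 averaged in. The F-box gene and the centriole gene therefore kept a larger share of their 48hpf level in MG at 72hpf than the other 4 genes did.

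In C, *mcm5* and *cdk1* were lower after 48hpf but stayed above the MG level. At 60hpf *mcm5* in C had 126, 123, and 130 CPM. At 72hpf it had 23.7, 21.8, and 27.5 CPM and at 96hpf 94.3, 95.3, and 96.8 CPM. At 120hpf it had 38.04, 37.7, and 44.9 CPM and at 192hpf 131, 131, and 130 CPM. Relative to 48hpf C replicates 1 and 2, *mcm5* stood at 44.1%, 8.50%, 33.3%, 14%, and 45.6% at these stages. *cdk1* in C stood at 52.3%, 12.3%, 32.6%, 7.54%, and 49.7%, with the lowest levels at the same stages as *mcm5*, 72hpf and 120hpf. *ccnb1* and *ccnd1* ran differently in C, with 120hpf as their highest stage, at 119% and 169% of 48hpf. *ccnd1* had 1246, 1244, and 1237 CPM in C at 120hpf, against 159, 159, and 161 CPM in C at 96hpf and 376, 375, and 392 CPM in C at 192hpf. *skp2* was high in C at 72hpf (182, 179, and 183 CPM) and at 120hpf (166, 168, and 150 CPM) and no higher than 41.8 CPM in any other C column. The order of the stages in C thus differed between genes, and the libraries of 72hpf and 120hpf, which were less like those of 96 and 192hpf in the whole table, held both the lowest *mcm5* and the highest *skp2*; the part of these libraries in the pattern was not tested.

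A half-loss stage was read for each gene and fraction as the first stage after its highest level from which it stayed at or under 50% of that level through 192hpf, with 60hpf MG left out. Without the 48hpf replicate 3 columns, *mcm5*, *cdk1*, *ccnb1*, *ccnd1*, and *skp2* all reached half-loss in MG at 72hpf, and *rttn* reached it at 96hpf. With those columns averaged in, *mcm5*, *ccnb1*, and *ccnd1* kept 72hpf and *rttn* kept 96hpf, *skp2* moved to 192hpf, and *cdk1* did not reach it, since it stood at 21.7 CPM at 192hpf, beside the averaged 21.8 CPM of 48hpf. In C, *mcm5* reached half-loss at 60hpf, and *ccnb1*, *ccnd1*, *skp2*, and *rttn* did so at 192hpf, from highest levels at 120hpf for *ccnb1*, *ccnd1*, and *rttn* and at 72hpf for *skp2*. *cdk1* reached it in C at 72hpf without the 48hpf replicate 3 column and did not reach it with that column, because 192hpf C stood at 120 CPM. Without the replicate 3 columns the half-loss stage in MG therefore did not separate the S-phase gene *mcm5* from the mitotic genes *cdk1* and *ccnb1* at the spacing of these stages. Since 60hpf MG was left out, a loss already present at 60hpf was also read as 72hpf. In 60hpf MG *mcm5* and *cdk1* stood at 3.67 and 0 CPM, under the floor of 38 CPM. They had 364 and 209 CPM in 48hpf MG replicates 1 and 2, so both were lower at 60hpf than in these columns. With the replicate 3 library averaged in, they had 48.1 and 21.8 CPM at 48hpf. *cdk1* was then under the floor of 60hpf at 48hpf as well, so its fall by 60hpf could not be read. *mcm5* was then little above that floor. The order of loss between 48hpf and 72hpf could not be read at the depth of 60hpf MG.

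The 60hpf MG columns held few reads of these genes. *cdk1*, *skp2*, and *rttn* had no read in any 60hpf MG column, *mcm5* had a read in replicate 3 only (11 CPM), and *ccnb1* had 48.5, 31.5, and 0 CPM. With *cdk1* at 129, 128, and 123 CPM in 60hpf C, its level in 60hpf MG was 3.34-fold lower when set to the floor of 38 CPM (3 reads per library). The upper limit of its 95% counting interval was a log2 difference of -1.44. For *mcm5* the upper limit of the 95% counting interval of the log2 difference was -1.43. *ccnd1* was the one gene above the floor in all 3 columns, with 84.8, 110, and 88.1 CPM in MG against 192, 194, and 191 CPM in C, a log2 difference of -1.03 (-2.43 to -0.07). For *ccnb1* the interval ran from -4.05 to 0.86, and for *skp2* and *rttn* a difference was not detectable at this depth. In all, 3 of the 4 genes with a value at 60hpf were at least 2-fold lower in MG, where 29.3% of all genes with a value were, and 0 were higher, where 8.98% were. A gene had a value where MG or C was over the floor of 38 CPM. *mcm5*, *cdk1*, and *ccnb1* were over it in C only (126, 127, and 50.7 CPM), so none of them could be called higher in MG. The count therefore does not show a direction on its own.

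From 72hpf on all 6 measured genes were lower in MG than in C at every stage. At 72, 96, 120, and 192hpf, 6 of 6 were at least 2-fold lower in MG, against 28.9%, 34.7%, 40.1%, and 27.8% of all genes, and none was 2-fold higher, against 29.1%, 9.05%, 25.4%, and 9.45% of all genes. All 6 were at least 2-fold lower at all 4 of these stages, as were 667 of 12790 genes (5.22%). The genes were chosen for their known role and with earlier results of these libraries in view.

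*mcm5*, the S-phase gene, had a smaller difference at 72hpf than at the 3 later stages. At 96hpf it had 4.51, 4.54, and 4.85 CPM in MG, at 120hpf 0.435, 0.433, and 0.448 CPM, and at 192hpf 3.87, 3.78, and 7.12 CPM. The log2 difference from C was -1.80 at 72hpf (-2.29 to -1.32), -4.37 at 96hpf (-5.42 to -3.56), -6.52 at 120hpf (-8.82 to -4.94), and -4.73 at 192hpf (-5.45 to -4.13). The value of 120hpf rests on 3 reads in MG, and with the floor applied, as in the fits, it was -5.38. The interval of 72hpf did not overlap those of the 3 later stages.

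*cdk1*, the kinase of mitotic entry, alternated between stages in MG. It had 16.4, 15.3, and 19.0 CPM in MG at 96hpf and 21.1, 21.8, and 22.4 CPM at 192hpf, but 0.869, 0.722, and 1.35 CPM at 120hpf and the equally low levels of 72hpf given above. In C it had 30.1, 28.7, and 30.4 CPM (72hpf), 78.1, 77.9, and 81.0 CPM (96hpf), 16.9, 17.1, and 20.8 CPM (120hpf), and 121, 120, and 120 CPM (192hpf). The alternation was shared by C, at a higher level. The log2 difference was -5.15 at 72hpf (-6.56 to -4.13), -2.23 at 96hpf (-2.73 to -1.78), -4.22 at 120hpf (-5.55 to -3.03), and -2.47 at 192hpf (-2.80 to -2.16). A *cdk1* level near 20 CPM was thus measured in MG at the latest stage, above that of 72hpf and 120hpf and still 5.54-fold below C.

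*ccnb1*, its cyclin partner, had 4.51, 4.54, and 7.27 CPM (96hpf), 0.145, 0.181, and 0.149 CPM (120hpf), and 12.2, 11.6, and 11.3 CPM (192hpf) in MG. In C its columns stood between 57.1 and 58.6 CPM (72hpf), 20.3 and 21.4 CPM (96hpf), 85.4 and 96.4 CPM (120hpf), and 31.7 and 32.9 CPM (192hpf). Unlike *cdk1*, it was highest in C where it was lowest in MG, at 120hpf. The log2 difference was -2.69 at 72hpf (-3.07 to -2.30), -1.93 at 96hpf (-2.91 to -1.15), -9.19 at 120hpf (-14.61 to -6.81), and -1.46 at 192hpf (-1.92 to -0.99). At 120hpf a single read in MG met 285 reads in C, and with the floor applied, as in the fits, the difference was -6.57.

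*ccnd1*, the cyclin of G1, stayed low in MG at these stages. In MG it had 16.8, 16.5, and 17.0 CPM (96hpf), 11.9, 12.1, and 11.4 CPM (120hpf), and 34.2, 35.5, and 28.3 CPM (192hpf), beside C columns of 171 to 176 CPM at 72hpf and the C levels given above. The log2 difference from C was -3.15 at 72hpf (-3.40 to -2.91), -3.25 at 96hpf (-3.74 to -2.80), -6.72 at 120hpf (-7.05 to -6.39), and -3.54 at 192hpf (-3.81 to -3.30). The difference at 120hpf was carried by C, whose level there was 1242 CPM, while MG stayed between 11.4 and 35.5 CPM over these stages.

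*skp2* was higher at 72 and 120hpf than at 96 and 192hpf in both fractions. In MG it had 1.23, 1.24, and 2.83 CPM (96hpf), 15.9, 16.4, and 15.1 CPM (120hpf), and 1.88, 1.72, and 2.22 CPM (192hpf). In C it had 9.05, 8.80, and 9.06 CPM at 96hpf and 5.09, 5.12, and 5.56 CPM at 192hpf. The log2 difference was -3.35 at 72hpf (-3.61 to -3.10), -2.35 at 96hpf (-4.37 to -1.02), -3.35 at 120hpf (-3.67 to -3.05), and -1.44 at 192hpf (-2.86 to -0.37). *rttn*, the centriole gene, had columns between 0.946 and 2.35 CPM in MG at 96, 120, and 192hpf. Its C columns held 22.7 to 25.98 CPM (72hpf), 5.62 to 6.69 CPM (96hpf), 38.04 to 45.0 CPM (120hpf), and 14.8 to 17.3 CPM (192hpf), so that its low level in MG met a level in C that changed from stage to stage. Its log2 difference was -1.19 at 72hpf (-1.62 to -0.77), -1.89 at 96hpf (-3.83 to -0.44), -4.83 at 120hpf (-5.92 to -3.90), and -3.21 at 192hpf (-4.40 to -2.10).

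**Figure D2:**
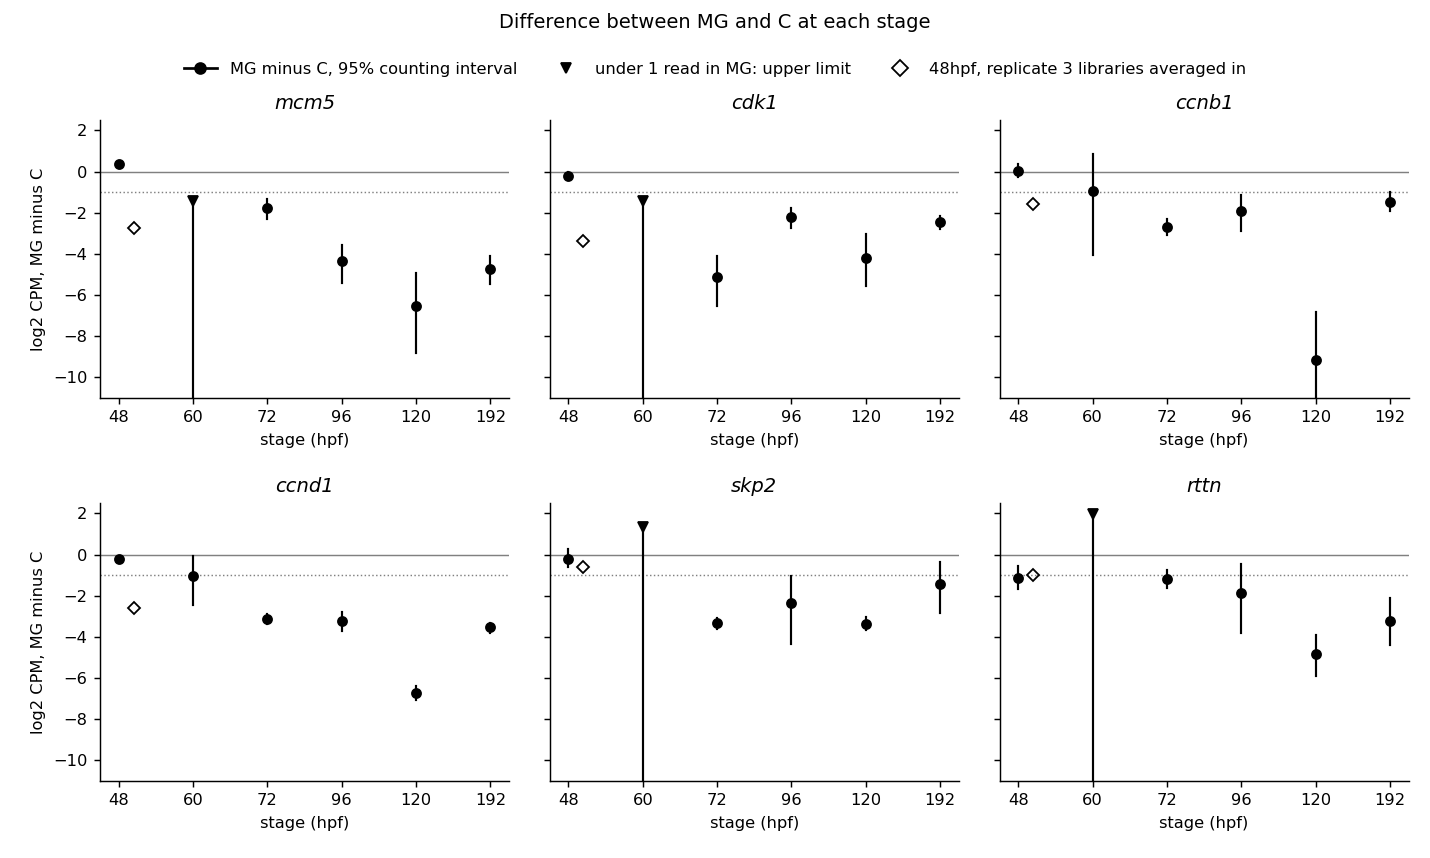
Log2 difference of CPM (MG minus C) of 6 proliferation genes against stage in hpf; points are libraries with their 95% counting intervals, triangles are upper limits where MG had less than a read per column, and open diamonds are the 48hpf values with the replicate 3 libraries averaged in. At 48hpf the points of 5 genes lie near 0, and at 72, 96, 120, and 192hpf every point lies below the dotted line of a 2-fold difference.

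S-phase and mitotic genes were set side by side by subtracting the log2 difference of a mitotic gene from that of *mcm5*, which cancels gene length and the scaling of a library. At 72hpf the difference of *mcm5* was 3.36 log2 units above that of *cdk1* and 0.89 above that of *ccnb1*. Relative to C, these 2 mitotic genes were thus the lower ones in MG. In MG itself *ccnb1* had 8.97 CPM at 72hpf and *mcm5* had 7.01 CPM. In C at 72hpf *mcm5* stood at 8.50% of 48hpf replicates 1 and 2, *cdk1* at 12.3%, and *ccnb1* at 74.9%. At 96hpf the order was turned, with *mcm5* minus *cdk1* at -2.14 and *mcm5* minus *ccnb1* at -2.43, and at 192hpf the differences of *mcm5* minus *cdk1* and *mcm5* minus *ccnb1* were -2.26 and -3.27. The counting intervals of *mcm5* and either mitotic gene did not overlap at these 3 stages, though at 72hpf those of *mcm5* and *ccnb1* nearly met (-2.29 and -2.30). At 120hpf they overlapped, with 3 *mcm5* reads, 7 *cdk1* reads, and 1 *ccnb1* read in MG. The order of *mcm5* and these 2 mitotic genes was therefore not the same at 72hpf as at 96 and 192hpf. In MG, the libraries of 96 and 192hpf are the ones that resemble each other most. The wider lists described below had medians of -2.02 (replication) and -2.01 (mitosis) at 72hpf, so the order of 72hpf was not seen in them. With 1 library per fraction, the spread between animals is not in the counting intervals.

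Markers of other cells differed between the stages as well. The summed level of 13 markers of retinal progenitors was 731, 9529, 1116, and 4608 CPM in MG at 72, 96, 120, and 192hpf, against 2553, 6109, 1470, and 4795 CPM in C; *fabp7a* led the sum in MG at 96hpf (7561 CPM). The summed level of 8 photoreceptor markers was 4098, 238078, 1679, and 123970 CPM in MG at these stages, against 545, 13766, 2632, and 20443 CPM in C. All 8 photoreceptor markers were over the floor in MG and in C at 96hpf. Both sums in MG were high at 96 and 192hpf, the stages at which *cdk1* in MG was also at its higher levels. The summed level of 7 markers of inner retinal neurons was 4297, 879, 3573, and 1345 CPM in MG at 72, 96, 120, and 192hpf, against 10622, 4116, 3919, and 1545 CPM in C, and in MG it was higher at the stages at which *skp2* was higher. The part of these cells in the levels of *cdk1*, *mcm5*, or *skp2* was not tested. At 48hpf, with the replicate 3 libraries averaged in, the 13 progenitor markers summed to 3488 CPM in MG and 17976 CPM in C. *hmga1a* led this sum in MG (2369 CPM) and in C (14609 CPM). It had 251 CPM in 72hpf MG, which the replicate 3 library of 48hpf MG resembled. With the replicate 3 libraries averaged in, the summed level of 8 glial markers at 48hpf was 695 CPM in MG and 271 CPM in C. The marker sums of 48hpf without these libraries are not given here. No difference in these markers between MG and C at 48hpf is therefore read from them. At 72hpf these glial markers summed to 2774 CPM in MG and 645 CPM in C.

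The 6 stages were also taken as pairs of MG and C and tested across 15932 genes with limma, with Benjamini-Hochberg adjustment. All 6 measured genes were called lower in MG, as were 6.46% of all genes (1029 of 15932). *mcm5* had a mean log2 difference of -3.46 ± 1.57 (SD over stages) and was lower at 6 of 6 stages (limma adjusted p = 0.00753). *cdk1* had a mean of -3.19 ± 1.30 and was lower at 6 of 6 (limma adjusted p = 0.00727), *ccnd1* had a mean of -3.38 ± 1.87 and was lower at 6 of 6 (limma adjusted p = 0.0106), and *ccnb1* had a mean of -2.44 ± 2.15 and was lower at 6 of 6 (limma adjusted p = 0.0413). *skp2* had a mean of -2.22 ± 1.21 over 5 stages with a value (limma adjusted p = 0.0287), and *rttn* had a mean of -2.42 ± 1.61 over 5 stages (limma adjusted p = 0.0349). By the exact two-sided sign-flip permutation test over a gene's own stages the first 4 genes had p = 0.0312, the smallest that 6 stages allow, and the last 2 had p = 0.0625, the smallest that 5 stages allow. At 60hpf *mcm5*, *cdk1*, and *ccnb1* were over the floor in C only, so their value there could only be negative. For *ccnb1* it was -0.42 with the floor applied, where the counting interval ran from -4.05 to 0.86. The 6 of 6 stages, the permutation p, and the limma fit of these genes include that value, which shows no direction on its own. These calls ended when both 48hpf replicate 3 columns were left out: 0 of 6 genes were then called (adjusted p 0.093 to 0.156 in limma), 6 of 6 had an unadjusted p under 0.05 in limma, and 0 of 15728 genes were called lower (2557 at an unadjusted p under 0.05). The exact permutation p was then 0.0312 for *cdk1* and *ccnd1* and 0.0625 for *mcm5* and *ccnb1*. The means without these columns were -2.94 for *mcm5*, -2.67 for *cdk1*, -2.99 for *ccnd1*, -2.17 for *ccnb1*, -2.14 for *skp2*, and -2.45 for *rttn*, with *mcm5* and *ccnb1* lower at 5 of 6 stages and the others lower at every stage with a value. Under TMM scaling 3 of 6 were called, *mcm5*, *cdk1*, and *ccnd1*, beside 2.73% of all genes, and the same 3 were called without 72 and 120hpf, beside 3.91%.

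A slope over time was fitted in limma to the 11 stage values (log2 CPM per doubling of hpf, 60hpf MG left out) across 16135 genes. *mcm5* had a slope of -1.67 ± 0.84 (SE) in MG and -0.47 ± 0.78 in C, *ccnb1* had -0.78 ± 0.74 in MG and -0.41 ± 0.68 in C, and *ccnd1* had -0.89 ± 0.80 in MG and 0.28 ± 0.75 in C. *skp2* had -1.57 ± 1.12 in MG and -0.97 ± 1.04 in C, *rttn* had -1.40 ± 0.74 in MG and 0.02 ± 0.69 in C, and *cdk1* had 0.07 ± 0.997 in MG and -0.59 ± 0.93 in C. The slope was negative in MG for 5 of 6 genes, but no slope in MG or in C and no difference between the fractions passed the test. Among all genes 0% were called falling in MG, 0% falling in C, and 0% with a more negative slope in MG. At an unadjusted p under 0.05 in limma, 0 of the 6 genes passed in MG, in C, or in the difference, and 247 and 141 of the 16135 genes had a negative slope at that p in MG and in C. The median slope of all genes was 0.06 in MG and 0.01 in C. Without the 48hpf replicate 3 columns the slope in MG was -2.94 ± 1.05 for *mcm5*, -1.33 ± 1.25 for *cdk1*, -1.48 ± 0.85 for *ccnb1*, -1.94 ± 1.01 for *ccnd1*, -1.81 ± 1.14 for *skp2*, and -1.53 ± 0.78 for *rttn*, negative in 6 of 6 genes. None of them passed the adjusted test in limma, and 1, *mcm5*, had an unadjusted p under 0.05. The shares of all genes with a negative slope or at that p without these columns are not given here. Leaving the columns out also moved other genes, as half-loss in MG at 72hpf went from 6.93% to 15.2% of all genes. The 6 of 6 is therefore not read as particular to these genes. With 11 stage values the fit had little power for slopes of this size, so a slope that was not called is not shown to be absent.

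The wider gene lists of the cell cycle, which hold some of the 9 genes, were described in the same way. Of the 47 identifiers of a list for replication and S phase, 6 were at 0 everywhere and 41 had reads. Their summed level was 7879 CPM in 48hpf MG replicates 1 and 2 and 908, 305, 604, and 440.2 CPM in MG at 72, 96, 120, and 192hpf, against 6762 CPM in 48hpf C replicates 1 and 2 and 2291, 2303, 2159, and 2640.1 CPM in C at 72, 96, 120, and 192hpf. The 43 measured genes of a mitosis list summed to 3674 CPM in 48hpf MG replicates 1 and 2, and to 690, 282, 224, and 396 CPM in MG at 72, 96, 120, and 192hpf, against 4182 CPM in 48hpf C and 2186, 1117, 2243, and 1618 CPM in C at the later stages. Both lists were thus at 18.8% of their 48hpf level or less in MG from 72hpf on, and between 26.7% and 53.6% in C. Half-loss in MG fell on 72hpf for 33 of 40 replication genes and 35 of 42 mitosis genes without the 48hpf replicate 3 columns, and for 23 and 16 of them with these columns. Of all genes with a mean of at least 1 CPM, 15.2% did so without these columns and 6.93% with them. In 48hpf MG replicate 3 the sums were 876 and 699 CPM, near those of 72hpf MG.

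**Figure D3:**
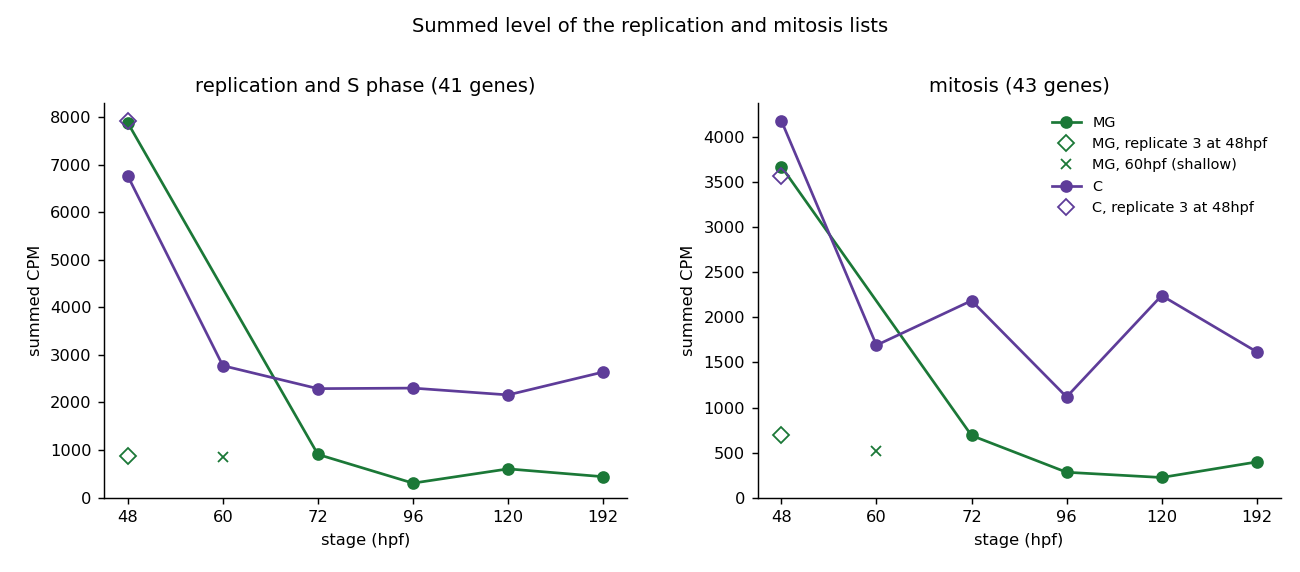
Summed CPM of 41 replication and S phase genes (left) and 43 mitosis genes (right) in MG (green) and C (purple) libraries against stage in hpf; lines join the libraries, with replicates 1 and 2 at 48hpf, open diamonds are replicate 3 at 48hpf, and the cross is the shallow 60hpf MG library. MG falls to 908 CPM for replication and 690 CPM for mitosis at 72hpf and stays below C at each later stage.

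At 96hpf, 40 of the 40 replication genes with a value were at least 2-fold lower in MG, with a median log2 difference of -2.95, and 37 of 42 mitosis genes, with a median of -2.23; the median of all genes was -0.64. At 192hpf it was 37 of 40 replication genes (median -2.81) and 41 of 42 mitosis genes (median -2.17; all genes -0.36). At 120hpf it was 32 of 40 replication genes (median -3.07) and 38 of 42 mitosis genes (median -3.96; all genes -0.47). At 72hpf the 2 medians were -2.02 (34 of 41 genes) and -2.01 (27 of 42 genes), beside 0.00 for all genes. Of all genes, 28.9%, 34.7%, 40.1%, and 27.8% were at least 2-fold lower at 72, 96, 120, and 192hpf. The replication list had the lower median at 96 and 192hpf and the mitosis list at 120hpf. The difference between the lists was not tested. At all 4 stages from 72hpf on, 26 of 39 replication genes and 24 of 42 mitosis genes were at least 2-fold lower, beside the 5.22% of all genes. At 48hpf and without the replicate 3 columns the medians were 0.07 and -0.13, above the -0.39 of all genes. At that stage 1 of 40 and 2 of 42 genes were at least 2-fold lower, beside 18.3% of all genes. With the replicate 3 libraries averaged in, 31 of 40 replication genes (median -1.86) and 32 of 42 mitosis genes (median -1.72) were, beside 28.5% of all genes (median -0.35).

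Single genes of the lists were taken by their mean log2 difference over the stages. Leaving out the 9 genes, among replication genes *uhrf1*, which keeps DNA methylation through replication, had the lowest mean, -4.25, followed by *rrm1*, a subunit of ribonucleotide reductase, and *mcm4*, a helicase subunit like *mcm5*, both at -3.78. Each of them was lower at 6 of 6 stages and called in limma (adjusted p = 0.0126, 0.00727, and 0.00602), and none was called without the 48hpf replicate 3 columns (adjusted p = 0.106, 0.106, and 0.0897 in limma). At 60hpf *uhrf1* was over the floor in C only (51.8 CPM), so its value there could only be negative. At the other end stood *gmnn*, geminin, which blocks the relicensing of origins. It had 371 CPM in MG against 67.5 CPM in C at 72hpf, but 15.0 CPM in MG against 72.1 CPM in C at 96hpf, 150 CPM against 282 CPM at 120hpf, and 18.8 CPM against 44.0 CPM at 192hpf, for a mean of -0.25 (limma adjusted p = 0.812). *gmnn* therefore stood high in 72hpf MG, where *mcm4* had 0.552 CPM in MG and 38.2 CPM in C. The mean of *gmnn* without the 48hpf replicate 3 columns was -0.63.

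Among mitosis genes other than *cdk1* and *ccnb1*, *ncaph*, a condensin subunit, had the lowest mean, -3.54, followed by *sgo1*, which protects centromere cohesion, and *spc25*, a kinetochore subunit, both at -2.87. They were lower at 5 of 5 stages with a value and called in limma (adjusted p = 0.00669, 0.0126, and 0.0118), though not without the 48hpf replicate 3 columns (limma adjusted p = 0.0897, 0.11, and 0.115). *hmmr*, which binds hyaluronan and spindle microtubules, had the highest mean, 0.04, with 28.7, 9.42, 5.07, and 19.7 CPM in MG at 72, 96, 120, and 192hpf, against 15.9, 12.98, 5.23, and 23.7 CPM in C. Its level thus differed little between the fractions, while those of most of its list were several fold lower in MG. The mean of *hmmr* without the 48hpf replicate 3 columns was -0.0048.

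Of the 24 measured genes that control the step from G1 to S phase, 15 of 23 with a value were at least 2-fold lower in MG at 192hpf and 19 of 22 at 120hpf. Of all genes, 27.8% and 40.1% were at these stages. With *ccnd1* and *skp2* left out, *ccne1* and *ccne2*, the cyclins E that activate the S-phase kinase, had means of -3.29 and -2.67, and *e2f8*, a repressor of the E2F family, had -2.98 (limma adjusted p = 0.00922, 0.0198, and 0.00897; 0.093, 0.149, and 0.106 without the 48hpf replicate 3 columns). *rbl2*, the pocket protein p130 of resting cells, stood at the other end with -0.10, and had 25.9, 35.2, 13.9, and 55.3 CPM in MG at 72, 96, 120, and 192hpf, against 10.5, 46.9, 29.98, and 57.3 CPM in C. Without the 48hpf replicate 3 columns the mean of *rbl2* was -0.45, and its difference at 48hpf was -2.14 in place of 0.01. Of 14 measured centrosome and centriole genes, the class of *rttn*, 10 of 14 were at least 2-fold lower in MG at 96hpf and at 120hpf and 9 of 14 at 192hpf. The shares of all genes at 96, 120, and 192hpf were 34.7%, 40.1%, and 27.8%. With *rttn* left out, the centriole assembly genes *sass6* and *stil* had means of -3.08 and -2.69 and the spindle pole gene *aspm* had -1.92 (limma adjusted p = 0.0147, 0.0232, and 0.0269; 0.108, 0.123, and 0.123 without the 48hpf replicate 3 columns), while *cdk5rap2*, a scaffold of the pericentriolar material, had 0.53 (limma adjusted p = 0.38). Without the 48hpf replicate 3 columns the mean of *cdk5rap2* was 0.33. At 72hpf 5 of 13 centrosome genes were 2-fold lower and 3 of 13 were 2-fold higher, beside 28.9% and 29.1% of all genes.

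**Figure D4:**
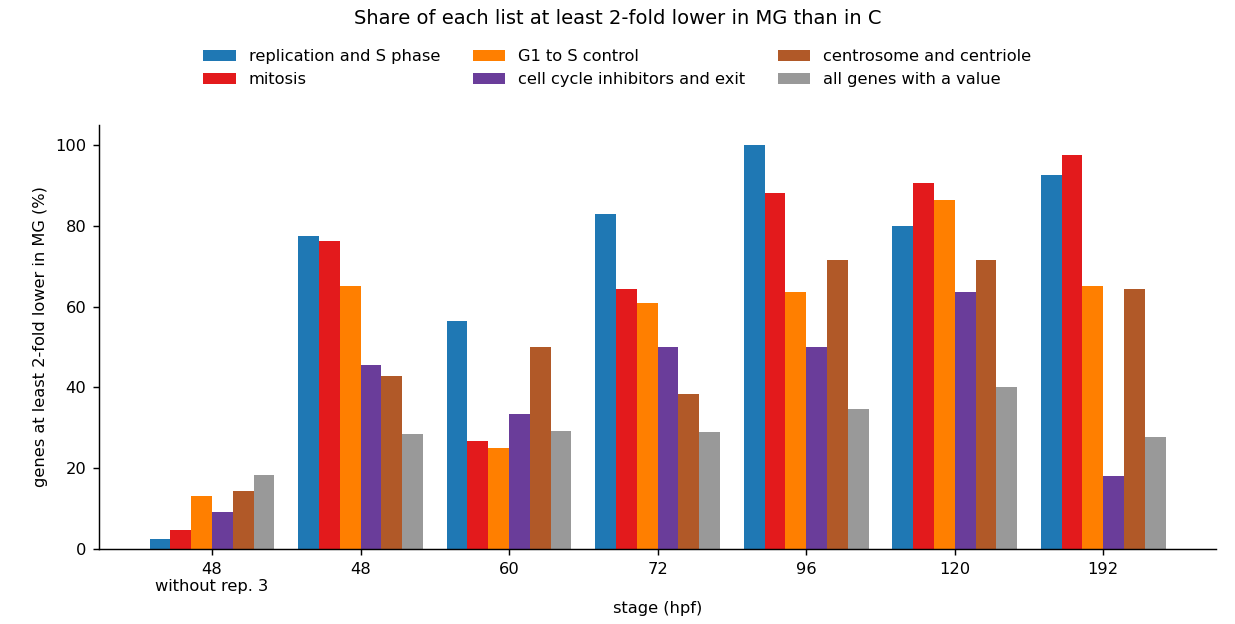
Share (%) of the genes with a value whose CPM in MG was at most 0.5 of that in C (2-fold lower), for 5 gene lists and for all genes (grey), against stage in hpf, with 48hpf drawn without and with the replicate 3 libraries. The replication and mitosis shares reach 100% and 88.1% at 96hpf, beside 34.7% of all genes, and stand at 2.5% and 4.76% at 48hpf without replicate 3, beside 18.3%. With replicate 3 the 48hpf shares are 77.5% and 76.2%, beside 28.5%.

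Inhibitors of the cell cycle and genes of cell cycle exit were more mixed. At 192hpf 2 of the 11 with a value were at least 2-fold lower in MG, beside 27.8% of all genes. The list median was -0.30 beside -0.36 for all genes (under TMM scaling 0.12 for the list and 0.03 for all genes). At 120hpf 7 of 11 were at least 2-fold lower, beside 40.1% of all genes, with a median of -1.87 beside -0.47. At 72hpf it was 5 of 10, beside 28.9% of all genes, with a median of -1.09 beside 0.00. At 96hpf it was 5 of 10, beside 34.7% of all genes, with a median of -1.15 beside -0.64. *cdkn1a*, which encodes the kinase inhibitor p21, had 71.5 CPM in MG against 31.8 CPM in C at 72hpf and 266 CPM in MG against 38.2 CPM in C at 120hpf, but 14.6 CPM against 15.2 CPM at 96hpf and 39.8 CPM against 71.4 CPM at 192hpf. Its 2 high values in MG fell on the stages at which the MG libraries of *cdk1* stood at 0.835 and 0.979 CPM. *skp2* and *cdkn1bb* were also higher in MG at 72 and 120hpf than at 96 and 192hpf. A link between *cdkn1a* and *cdk1* was not tested. Over the stages the mean of *cdkn1a*, 0.80, did not pass the test, with a value at 5 stages and lower at 2 of them (limma adjusted p = 0.353). In 48hpf replicates 1 and 2 it had 6.05 CPM in MG against 15.4 CPM in C, a direction that turned with the replicate 3 libraries averaged in. Without these libraries the mean of *cdkn1a* was 0.34. *cdkn1bb*, which encodes a p27 protein, had 311, 22.9, 257, and 46.9 CPM in MG at 72, 96, 120, and 192hpf, against 351, 62.7, 350, and 64.3 CPM in C, high at 72 and 120hpf in both fractions, as *skp2* was. The p57 genes *cdkn1ca* and *cdkn1cb* had means of -1.27 and -1.98 (limma adjusted p = 0.151 and 0.0314), and *cdkn1ca* was at 12.2 and 13.8 CPM in MG against 11.7 and 15.2 CPM in C at 96 and 192hpf. The antiproliferative gene *btg2* had a mean of -2.22 and *ccng2*, cyclin G2, had -1.46, both lower at 6 of 6 stages (limma adjusted p = 0.0102 and 0.0475). At 60hpf both were over the floor in C only (95.4 and 203 CPM), so their values there could only be negative. Without the 48hpf replicate 3 columns *cdkn1cb*, *btg2*, and *ccng2* were not called (limma adjusted p = 0.154, 0.106, and 0.17). The mean of *cdkn1ca* was then -0.77.

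The genes most like the mitotic pair were sought by Pearson's r with the mean profile of *cdk1* and *ccnb1* over the 11 stage values, among 15125 genes with a symbol. They were *e2f4* (r = 0.99), an E2F factor of the cell cycle, *ran* (r = 0.98), the GTPase of nuclear transport and spindle assembly, *rrm1* (r = 0.98), *gspt1* (r = 0.98), a translation termination factor, and *stmn1a* (r = 0.97), a microtubule destabilizer. *mcm5* ranked 124th with r = 0.92 and *ccnd1* 221st with r = 0.90, while *rttn* had r = 0.70 and *skp2* r = 0.33. The genes most like *mcm5* were *nutf2l*, *shmt1*, *zgc:113054*, *aprt*, and *mis12*, each with r of 0.98 or 0.99; *shmt1* supplies one-carbon units for nucleotide synthesis, *aprt* salvages adenine, and *mis12* belongs to the kinetochore. *cdk1* had r = 0.87 with *mcm5* and *ccnb1* r = 0.82. Without the 48hpf replicate 3 columns *pak2b* took the place of *stmn1a*, and *hells* that of *mis12*, among the 5 genes of each profile. These values describe 11 points that share libraries, and with so few points many genes reach a high r.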

How the data were processed

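RNA of GFP-positive (MG) and GFP-negative (C) cells sorted from Tg(*GFAP:GFP*) eyes was amplified and sequenced. By the study's methods reads were aligned with Hisat2 and counted on Ensembl genes with featureCounts; the paper names the build Zv9 and the submitters' processing notes name GRCz10. The authors deposited log2 CPM without a TMM factor. The reads were recovered by removing a prior of 0.25 read, since low values fall on steps of 0.01 read. Columns of a group were joined where the chi-square of their reads had a median ratio of at most 1.1, giving 14 libraries. Columns are labelled as replicates, and the paper calls them experimental replicates with minimal differences. It does not state that they are separate sorts.

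Symbols came from the gene name table and the study's supplementary tables, and chromosomes from RefSeq genes of GRCz12tu matched by symbol. The genes and lists were chosen with earlier results of these data known. The 9 genes are named throughout. In each list, these 9 left out, the 3 genes with the lowest and the 1 gene with the highest mean log2 difference are named, together with all measured *cdkn1* genes, and the 5 genes most like each profile, which rest on *cdk1* and *ccnb1* and on *mcm5*, since the other genes set for them were at 0.

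For the fits, the stage medians of the lists, and the 2-fold counts, CPM under 3 reads of the shallower library were set to that floor, while the differences printed with a counting interval are as measured, and the 2 libraries of a 48hpf group were averaged on the log2 scale. The stage pairs (a value at 3 stages or more) and the slopes (a mean of at least 1 CPM) were fitted with limma 3.58.1 (eBayes with a trend) in R 4.3.3 and called at an adjusted p under 0.05. Other steps used Python 3.11.15, numpy 2.4.6, pandas 2.3.3, scipy 1.17.1, and matplotlib 3.10.9. The 2-fold calls and both limma fits were tested on simulated data. There the slope fit seldom called slopes about as large as those of *mcm5*, *skp2*, and *rttn* in MG. The fit of the stage pairs missed most mean differences of about the size of *skp2*. Alternatives were TMM scaling, a floor of 10 reads, a pseudocount of 1 CPM, a filter at 5 CPM or none, other sets of stages, linear time, columns as replicates with and without a block, and leaving out each replicate.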

Additional observations from a re-analysis of the deposited data

How the results depend on the processing

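The calls at 72, 96, 120, and 192hpf held best. Under TMM scaling and with a pseudocount 6 of 6 genes were at least 2-fold lower in MG, and with a floor of 10 reads 5 of 6 were at 96hpf. The count was also 6 of 6 without each replicate. Since the columns of a group at these stages differed by no more than read sampling, leaving out a replicate could not test these calls. TMM scaling shifted single genes by up to 0.63 in the median (48hpf) and moved the median difference of all genes by up to 0.51 (96hpf), and *skp2* at 48hpf then stood at 0.03, beside -0.60. At 48hpf the count of 4 lower genes became 1 without both replicate 3 columns, where *mcm5* stood at 0.35 and *ccnb1* at 0.023, both turned in direction; leaving out a replicate gave counts of 1 to 4 and differences of -2.76 to 0.35 for *mcm5* and -1.61 to 0.023 for *ccnb1*. At 60hpf the count of 3 became 5 with a pseudocount of 1 CPM and no floor and 0 with a floor of 10 reads, since few reads lie behind it. Over all stages the count of 6 became 3 under TMM scaling, 0 without both 48hpf replicate 3 columns, and 3 without 72 and 120hpf (chosen after seeing the data), and leaving out a replicate gave 0 to 6; the cause was not tested. No slope of the 6 genes was called in any of the alternatives run. Under TMM scaling the half-loss stage of *ccnb1* in MG became 96hpf, and that of *cdk1* in C became 72hpf. The highest level in MG then fell on 192hpf for *cdk1*, 120hpf for *skp2*, and 72hpf for *rttn*, in place of 48hpf. Without both 48hpf replicate 3 columns the half-loss stage became 72hpf for *skp2* in MG and for *cdk1* in MG and in C.

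Columns taken as replicates in limma called 1, 5, 4, 4, 6, and 4 genes lower at 48, 60, 72, 96, 120, and 192hpf, beside 9.61%, 70.7%, 23.4%, 29.3%, 37.4%, and 20.5% of all genes, and with a replicate block the counts were 1, 5, 4, 4, 6, and 4 as well. Whether the replicate numbers pair the columns could not be read. Deviations of same-numbered MG and C columns correlated by -0.41 to 0.26, and 3 of 18 pairs were over 0.1. Since most columns of a group differed by read sampling only, there was little else in the deviations that could correlate. The values of -0.41 to -0.37 were those of 48hpf, where both replicate 3 columns resembled other groups. Depth limits the values at 60hpf and those of *mcm5*, *cdk1*, and *ccnb1* in MG at 120hpf, which rest on 7 reads or fewer. The same holds for *cdk1* in MG at 72hpf, on 7 reads, and for *skp2* and *rttn* in MG at 96hpf, on 4 reads each. With a floor of 10 reads the log2 difference of *cdk1* at 72hpf was -3.54, beside -5.15.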
